A study of Mus musculus with 2 samples.

Results

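The receptors for IL-3, GM-CSF, IL-5 and G-CSF were examined in leukemic stem cells (LSCs) from mice with BCR-ABL-driven chronic myeloid leukemia (CML). The members were taken by gene symbol and not by a cut-off on their values, although earlier results of these data were known. All 6 of them, Csf2rb, Csf2rb2, Csf2ra, Il3ra, Il5ra and Csf3r, were among the 23284 genes listed for each library.

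These genes encode cell surface receptors of the type I cytokine receptor family, which carry the signals that keep myeloid progenitors alive and drive their growth and maturation. IL-3, GM-CSF and IL-5 each bind an alpha chain of their own (Il3ra, Csf2ra and Il5ra), which then pairs with the common beta chain encoded by Csf2rb. Mice carry an additional beta chain, encoded by Csf2rb2, which serves IL-3 alone. The G-CSF receptor, encoded by Csf3r, works as a pair of identical chains without a separate beta chain. The beta chains and the G-CSF receptor have no kinase of their own and signal through bound JAK kinases, which activate STAT factors, above all STAT5, and through adaptors that lead to the RAS and PI3K pathways. BCR-ABL, the fusion kinase of CML, activates many of the same molecules.

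The study compared LSCs that carry or lack STAP-1, an adaptor protein of hematopoietic cells, to learn how STAP-1 acts in CML. LSK cells of wild type (WT) mice or of STAP-1 KO mice with a targeted disruption of the gene, both on the C57BL/6J background, were transduced with a retrovirus encoding human BCR-ABL and green fluorescent protein (GFP). The recipients were C57BL/6SJL mice given a lethal dose of radiation, and bone marrow of their own strain was injected with the transduced cells. GFP+ CD45.2+ LSK cells, which are donor-derived, carry the virus, lack lineage markers and bear Sca-1 and c-Kit, were sorted for RNA-seq, and the profiles are described as those of day 11 after the first transplantation. Mice of 8 to 14 weeks were used. BCR-ABL is driven by the retroviral vector and not by its own promoter, and the sources used here do not say whether the RNA came from 1 recipient or from several.

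There was 1 library of WT LSCs and 1 library of STAP-1 KO LSCs, so differences between them rest on single samples and carry no p-value. Levels are the deposited FPKM values (fragments scaled to exon length and to the mapped fragments of the library), which are divided by transcript length, although the ratio of the libraries still varied with that length, so that levels of genes of unequal length are compared with that limit. From the steps between low FPKM values, the libraries had effective depths of about 7500000 reads (WT) and 10470000 reads (STAP-1 KO). Intervals in parentheses are exact 95% counting intervals at these depths. They cover counting error only, not the difference between mice or sorts, and PCR copies of 1 molecule make them too narrow. A log2 ratio is log2((STAP-1 KO + 0.1)/(WT + 0.1)) of FPKM, which understates changes of low genes, and it had a median of -0.04 over the 10974 genes that averaged 1 FPKM or more. The targeted gene, Stap1, had 62.0 FPKM in WT and 0.309 FPKM in STAP-1 KO LSCs, as the labels state. In sorted bulk RNA, fewer cells of a type and less RNA per cell cannot be told apart.

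The beta chain genes were far lower in the STAP-1 KO library, Il3ra was lower as well, Csf2ra was at nearly the same level in both libraries, Il5ra was close to the lower limit of detection, and Csf3r was higher. With a cut-off of 2-fold and at least 0.1 FPKM in both libraries, 3 of the 6 genes were lower and 1 was higher, against 22.9% of all 12507 genes tested that were lower and 12.3% that were higher. With a cut-off of 4-fold, 2 members were lower and 1 was higher, against 8.56% and 2.4% of all genes tested. The median log2 ratio of the 6 members was -0.82.

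**Figure D1:**
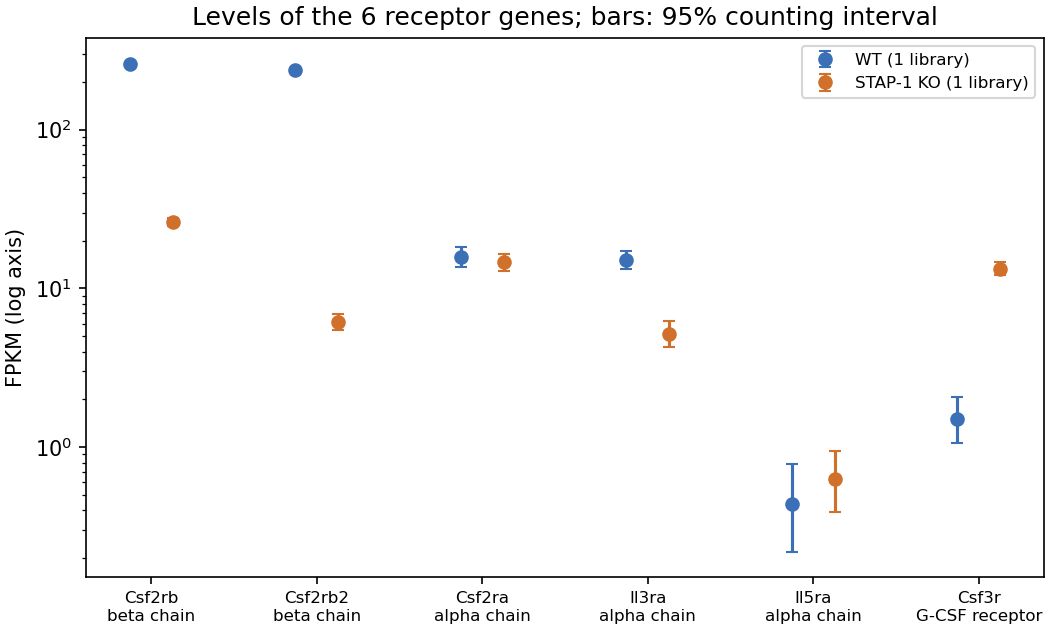
Levels of the 6 receptor genes in the WT library (blue) and the STAP-1 KO library (orange) in FPKM on a log axis, with points for the deposited values and bars for the 95% counting interval. Csf2rb and Csf2rb2 lie at 260 and 238 FPKM in the WT library and at 26.2 and 6.17 FPKM in STAP-1 KO LSCs, the points of Csf2ra lie at nearly the same height, and Csf3r is the gene whose orange point lies far above the blue one.

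Csf2rb and Csf2rb2 lie side by side on chromosome 15 of GRCm38 and point away from each other. Csf2rb spans chr15:78325752-78353847 on the plus strand, Csf2rb2 spans chr15:78282507-78305721 on the minus strand, and their starts are 20031 bases apart. Because near-identical genes can exchange reads, their sequences in GENCODE M21 were compared before their levels. The coding sequence of Csf2rb has 2691 bases (896 residues) and that of Csf2rb2 has 2637 bases (878 residues). They were identical at 2505 of 2631 paired bases, or 95.2%, and the longest identical run covered 242 bases, from base 2083 to base 2324 of the Csf2rb coding sequence.

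The differences were not spread evenly. In windows of 150 aligned bases, identity ranged from 84.0% in the third window to 100% in the windows that start at bases 2095 and 2395 of the Csf2rb coding sequence. The 120-base stretch in which the genes differ most is shown here because it is where a read is most readily assigned to 1 of them. It lies in exon 5 of Csf2rb (chr15:78338867-78338986, plus strand) and in exon 4 of Csf2rb2 (chr15:78294345-78294464, minus strand), in the part of the gene that encodes the extracellular region. Capitals mark the 16 bases that differ.
Csf2rb: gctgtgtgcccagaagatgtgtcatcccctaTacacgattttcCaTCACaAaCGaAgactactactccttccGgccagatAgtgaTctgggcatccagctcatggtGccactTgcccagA
Csf2rb2: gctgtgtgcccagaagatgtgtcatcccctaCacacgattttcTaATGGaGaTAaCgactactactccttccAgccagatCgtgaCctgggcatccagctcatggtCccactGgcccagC

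**Figure D2:**
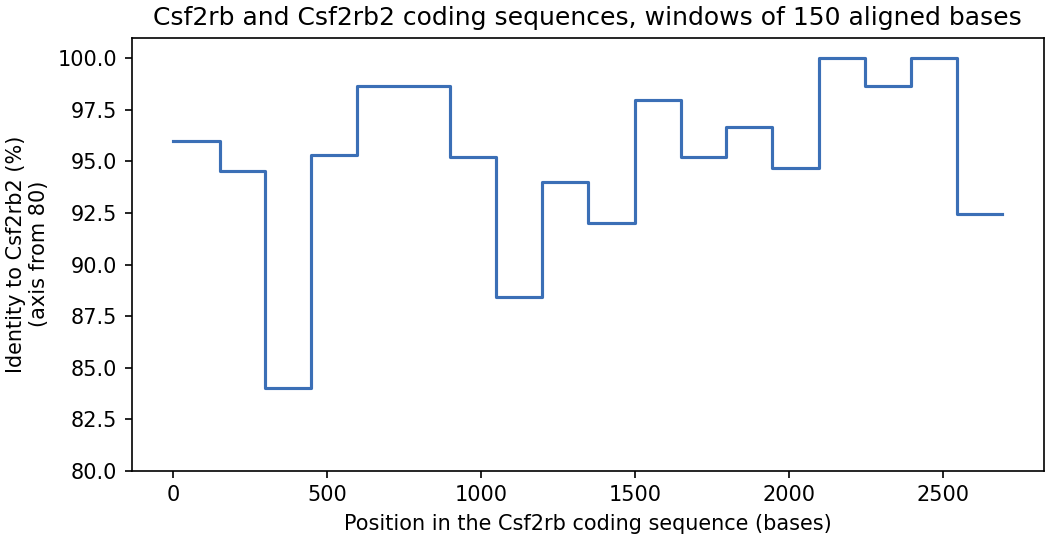
Identity of the Csf2rb and Csf2rb2 coding sequences in percent (axis from 80) in consecutive windows of 150 aligned bases, by position in the Csf2rb coding sequence. The third window falls to 84.0%, whereas the windows from bases 2095 and 2395 are identical.

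Over the whole transcripts, 518 of the 4826 possible 75-base reads of Csf2rb (10.7%) and 518 of the 4666 of Csf2rb2 (11.1%) were found without a mismatch in the other gene. About 9 in 10 reads of either beta chain therefore differ from the other transcript by 1 base or more.

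A feature common to the family is the WSXWS motif, a short stretch of the extracellular cytokine receptor domain. In the coding sequences of 3 members a single exact WSXWS was found, and it is shown here because it places the beta chains and the G-CSF receptor side by side. Capitals mark the 15 bases that encode it, with 24 bases on either side. In Csf2rb it starts at residue 428 in exon 11 (chr15:78345492-78345554, plus strand, flanks included), in Csf2rb2 at residue 427 in exon 10 (chr15:78287892-78287954, minus strand) and in Csf3r at residue 319 in exon 8 (chr4:126034506-126034568, plus strand). No exact WSXWS was found in the coding sequences of Csf2ra, Il3ra and Il5ra.
Csf2rb: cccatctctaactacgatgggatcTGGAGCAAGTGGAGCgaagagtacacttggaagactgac
Csf2rb2: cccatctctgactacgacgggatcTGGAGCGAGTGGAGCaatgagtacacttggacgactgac
Csf3r: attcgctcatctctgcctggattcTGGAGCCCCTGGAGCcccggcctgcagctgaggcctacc

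Csf2rb, the common beta chain, had 260 FPKM in WT (255 to 266) and 26.2 FPKM in STAP-1 KO LSCs (24.7 to 27.6). It was 9.95-fold lower (9.37 to 10.5), with a log2 ratio of -3.31, or -2.65 after subtraction of the median of genes of like transcript length. Among all genes listed, its level ranked 329 in WT and 3938 in STAP-1 KO LSCs. Of the genes tested, 263 had a lower ratio of STAP-1 KO to WT FPKM, taken without the pseudocount.

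Csf2rb2, the beta chain specific for IL-3, had 238 FPKM in WT (232 to 243) and 6.17 FPKM in STAP-1 KO LSCs (5.49 to 6.92). It was 38.5-fold lower (34.2 to 43.3), with a log2 ratio of -5.24. Only 25 of the genes tested had a lower ratio without the pseudocount. These levels correspond to about 8065 estimated reads in WT and 293 in STAP-1 KO LSCs. The beta chains were thus close to each other in the WT library and apart in the STAP-1 KO library, where Csf2rb2 was the scarcer one. The ratio of Csf2rb to Csf2rb2 in FPKM was 1.095 in WT and 4.24 in STAP-1 KO LSCs. Csf2rb2 provided 46.9% (exact binomial interval 46.1% to 47.6%) of the 17212 estimated beta chain reads of the WT library and 18.6% (16.7% to 20.6%) of the 1578 of the STAP-1 KO library.

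The beta chains also differed in fold when shared reads were assigned otherwise. If each 75-base read found in both transcripts had been assigned in the way that makes the change smallest or largest, Csf2rb would be between 7.90-fold and 11.5-fold lower and Csf2rb2 between 29.6-fold and 91.6-fold lower. These ranges do not overlap, but they assume even coverage of the transcripts. Only reads without a mismatch were moved, so the ranges do not bound every other assignment. The sum of the beta chains, which hardly depends on how shared reads were divided, was 498 FPKM in WT and 32.3 FPKM in STAP-1 KO LSCs and was 15.4-fold lower.

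**Figure D3:**
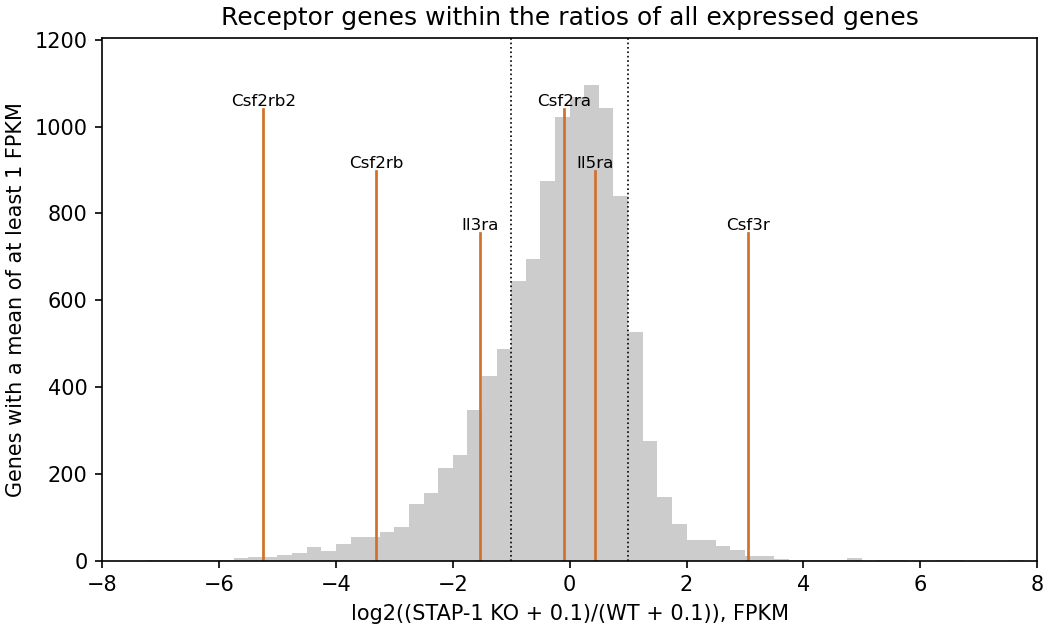
Number of genes (grey bars) by log2((STAP-1 KO + 0.1)/(WT + 0.1)) of FPKM for the 10974 genes that averaged 1 FPKM or more, with lines of arbitrary height at the 6 receptor genes (Il5ra has a mean below 1 FPKM) and dotted lines at a 2-fold difference. Csf2rb2 at -5.24 and Csf2rb at -3.31 lie in the left tail, Csf3r at 3.06 in the right tail, and Csf2ra at -0.10 in the centre.

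The alpha chains bind the cytokine but hardly signal without a beta chain. Csf2ra, the GM-CSF binding chain (chr19:61223957-61228429, minus strand), had 15.7 FPKM in WT (13.6 to 18.1) and 14.6 FPKM in STAP-1 KO LSCs (12.8 to 16.5). Its STAP-1 KO level was 0.931 times the WT level (0.769 to 1.13), with a log2 ratio of -0.10. The interval includes no difference and lies wholly inside the 2-fold limits, so that counting error alone does not hide a 2-fold difference between these libraries.

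Il3ra, the IL-3 binding chain (chr14:14346275-14356011, plus strand), had 15.1 FPKM in WT (13.2 to 17.1) and 5.16 FPKM in STAP-1 KO LSCs (4.26 to 6.20). It was 2.92-fold lower (2.32 to 3.68), with a log2 ratio of -1.53. Csf2ra and Il3ra were thus at indistinguishable levels in the WT library and differed in the STAP-1 KO library, where the ratio of Csf2ra to Il3ra in FPKM was 2.83 as against 1.04.

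Il5ra, the IL-5 binding chain of eosinophils and some B cells (chr6:106710357-106749037, minus strand), had 0.439 FPKM in WT (0.218 to 0.781) and 0.628 FPKM in STAP-1 KO LSCs (0.391 to 0.945). About 11.1 and 22.2 estimated reads stood behind these levels. The ratio of 1.43 had a counting interval from 0.666 to 3.27, so that a difference in either direction was not detectable at this depth.

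Summed over the 3 alpha chains, the level was 31.2 FPKM in WT and 20.4 FPKM in STAP-1 KO LSCs, 1.53-fold lower and within the cut-off. The beta chains together were 16.0 times as abundant as the alpha chains in the WT library (14.5 to 17.6) and 1.59 times as abundant in the STAP-1 KO library (1.42 to 1.78). For the IL-3 specific pair, Csf2rb2 was at 15.8 times the FPKM of Il3ra in the WT library and at 1.20 times in the STAP-1 KO library. For the GM-CSF pair, Csf2rb was at 16.6 and 1.79 times the FPKM of Csf2ra. The beta to alpha ratio was thus 10.1-fold lower in STAP-1 KO LSCs, but 5.53-fold lower after subtraction of the median log2 ratio of genes of like transcript length from each chain. Csf2rb over Csf2ra was then 4.70-fold lower in place of 9.24-fold, and Csf2rb2 over Il3ra 7.86-fold lower in place of 13.1-fold.

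Csf3r, the G-CSF receptor of neutrophils and their progenitors (chr4:126024550-126044440, plus strand), had 1.51 FPKM in WT (1.06 to 2.08) and 13.3 FPKM in STAP-1 KO LSCs (12.1 to 14.6). It was 8.81-fold higher (6.32 to 12.7), with a log2 ratio of 3.06, and 47 of the genes tested had a higher ratio without the pseudocount. About 37.1 estimated reads in WT and 457 in STAP-1 KO LSCs stood behind it.

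The order of the levels therefore differed between the libraries. In the WT library it was Csf2rb, Csf2rb2, Csf2ra, Il3ra, Csf3r and Il5ra, and of the neighbours in this order only the intervals of Csf2ra and Il3ra overlapped. In the STAP-1 KO library it was Csf2rb, Csf2ra, Csf3r, Csf2rb2, Il3ra and Il5ra, with overlapping intervals for Csf2ra and Csf3r and for Csf2rb2 and Il3ra. Of the summed FPKM of the 6 genes, which was 530.5 in WT and 66.1 in STAP-1 KO LSCs, the beta chains took 93.8% and 48.9%, the alpha chains 5.88% and 30.9%, and Csf3r 0.285% and 20.2%.

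The bases before the transcription start were searched for short motifs of factors known to act at myeloid genes. RefSeq (GRCm38.p6) gave the 250 bases upstream for 5 of the 6 members, without Csf2rb. The motifs, read on both strands, were GGAAGT for ETS factors, GAGGAA for PU.1, GATAA for GATA factors, TTCNNNGAA for STAT factors, TTGNGNAA for C/EBP factors and TGTGGT for RUNX factors. The upstream sequences of the most lowered member with an entry and of the member that was higher are shown 5′ to 3′ on the strand of the gene, with matches in capitals. Csf2rb2 lies at chr15:78305722-78305971 (minus strand) and Csf3r at chr4:126024409-126024658 (plus strand), where RefSeq starts the gene downstream of the GENCODE start.
Csf2rb2: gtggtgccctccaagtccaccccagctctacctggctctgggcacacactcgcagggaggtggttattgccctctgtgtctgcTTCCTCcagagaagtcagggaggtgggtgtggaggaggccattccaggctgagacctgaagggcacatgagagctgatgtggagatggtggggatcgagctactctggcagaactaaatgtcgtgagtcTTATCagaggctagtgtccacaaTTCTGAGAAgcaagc
Csf3r: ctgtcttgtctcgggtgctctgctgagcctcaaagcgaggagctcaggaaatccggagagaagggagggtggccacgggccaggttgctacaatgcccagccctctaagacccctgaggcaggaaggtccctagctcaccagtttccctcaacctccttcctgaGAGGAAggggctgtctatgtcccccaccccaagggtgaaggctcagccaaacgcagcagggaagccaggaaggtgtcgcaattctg

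The Csf2rb2 sequence held 1 PU.1, 1 GATA and 1 STAT match and the Csf3r sequence 1 PU.1 match. Csf2ra held 2 PU.1 and 1 C/EBP matches, Il3ra overlapping ETS and C/EBP matches, and Il5ra 1 GATA match. Matches of this length are frequent. Of 32851 promoters in the table, 23.3% held the PU.1 letters, 22.6% the GATA letters, 19.7% the ETS letters, 14.05% the RUNX letters, 11.7% the C/EBP letters and 7.02% the STAT letters.

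Levels of genes for such factors are given next. Spi1, which encodes PU.1, had 84.5 FPKM in WT and 92.7 FPKM in STAP-1 KO LSCs. Gata2, a factor of stem cells and of mast cells and basophils, had 409 and 55.2 FPKM and was 7.42-fold lower. The granulocytic factors Cebpa (0.768 and 4.36 FPKM) and Cebpe (1.17 and 3.99 FPKM) were 5.68-fold and 3.42-fold higher. Of the 10 transcription factors listed, 2 were lower, 2 were higher and 6 were within 2-fold, which is near the 22.9% and 12.3% of all genes tested.

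The genes of the ligands were examined next, since myeloid leukemia cells can produce cytokines that act on themselves. Csf2, which encodes GM-CSF, had 41.9 FPKM in WT and 8.69 FPKM in STAP-1 KO LSCs and was 4.82-fold lower (3.51 to 6.60). Il3 had 1.66 and 0.447 FPKM and was the other ligand gene past the cut-off. Of the 4 ligand genes, 2 reached 0.1 FPKM in both libraries and both were lower, against 22.9% of all genes tested. Only about 5.2 and 1.98 estimated reads stood behind the Il3 values, and the interval of its 3.72-fold lower level, from 0.571 to 36.6, included no difference. Il5 was at 0 in both libraries, and Csf3, which encodes G-CSF, was at 0 in the WT library and at 0.0827 FPKM in STAP-1 KO LSCs.

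Of the 4 JAK kinases, 3 were lower, against 22.9% of all genes tested. Jak2, the kinase bound by the beta chains, had 48.2 FPKM in WT and 13.1 FPKM in STAP-1 KO LSCs and was 3.68-fold lower (3.35 to 4.02), a log2 ratio of -1.87, or -1.21 less the median of genes of like length. Jak1 had 181 and 54.0 FPKM, Tyk2 31.8 and 8.17 FPKM, and Jak3, the partner of the common gamma chain receptors, 14.3 and 14.4 FPKM. Less the same kind of median, Jak1 was at -1.08 and Tyk2 at -1.28 on the log2 scale. Jak2 and Csf2rb were thus both lower, with log2 ratios of -1.87 and -3.31.

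Of 5 STAT factors, 2 were lower and 3 were within 2-fold, a count not far from the 22.9% of all genes tested. Stat5a had 20.8 FPKM in WT and 18.3 FPKM in STAP-1 KO LSCs. Stat5b had 27.8 and 12.9 FPKM and was 2.15-fold lower (1.95 to 2.37), Stat6 had 87.1 and 37.7 FPKM, and Stat3 48.8 and 29.6 FPKM. STAT5 is the main STAT factor of the beta chains, and STAT3 that of the G-CSF receptor. None of the 5 was past 2-fold after subtraction of the median of genes of like transcript length, which put Stat5b at -0.44 and Stat6 at -0.97 on the log2 scale.

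Of 16 adaptors and kinases that act at the receptors, 7 were lower and none was higher, against 22.9% and 12.3% of all genes tested, and the median log2 ratio was -0.84. After subtraction of the median of genes of like length, 4 were lower, without Sos1, Pik3r1 and Lyn (named for this loss), and the median was -0.17. That count is not far from the 19% of all genes tested that were lower after the same subtraction. The largest difference was that of Gab2, a scaffold that links receptors to PI3K, with 52.3 FPKM in WT and 3.66 FPKM in STAP-1 KO LSCs. Inpp5d, which encodes the lipid phosphatase SHIP1, had 112 and 16.4 FPKM, and Pik3cd, a catalytic subunit of PI3K, 129 and 31.8 FPKM.

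Of 10 genes that restrain cytokine signals, 5 were lower and none was higher, against 22.9% and 12.3% of all genes tested. Cish, a STAT5 target that feeds back on the receptors, had 432 FPKM in WT and 133 FPKM in STAP-1 KO LSCs. Socs1 had 78.2 and 24.1 FPKM, and Sh2b3, which encodes the adaptor LNK, 35.0 and 7.86 FPKM.

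Of 15 genes known to respond to these cytokines, 7 were lower, 2 were higher and 6 were within 2-fold, with a median log2 ratio of -0.93. Of all genes tested 22.9% were lower and 12.3% higher, the latter near the share of this list. Il2ra, the alpha chain of the IL-2 receptor, had 346 FPKM in WT and 24.3 FPKM in STAP-1 KO LSCs. Egr1, an immediate early gene, had 575 and 121 FPKM, and Pim2, a survival kinase, 103 and 29.0 FPKM. The members that were higher were Myc (59.3 and 169 FPKM) and Id1 (17.3 and 48.1 FPKM), named here after their values were seen.

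**Figure D4:**
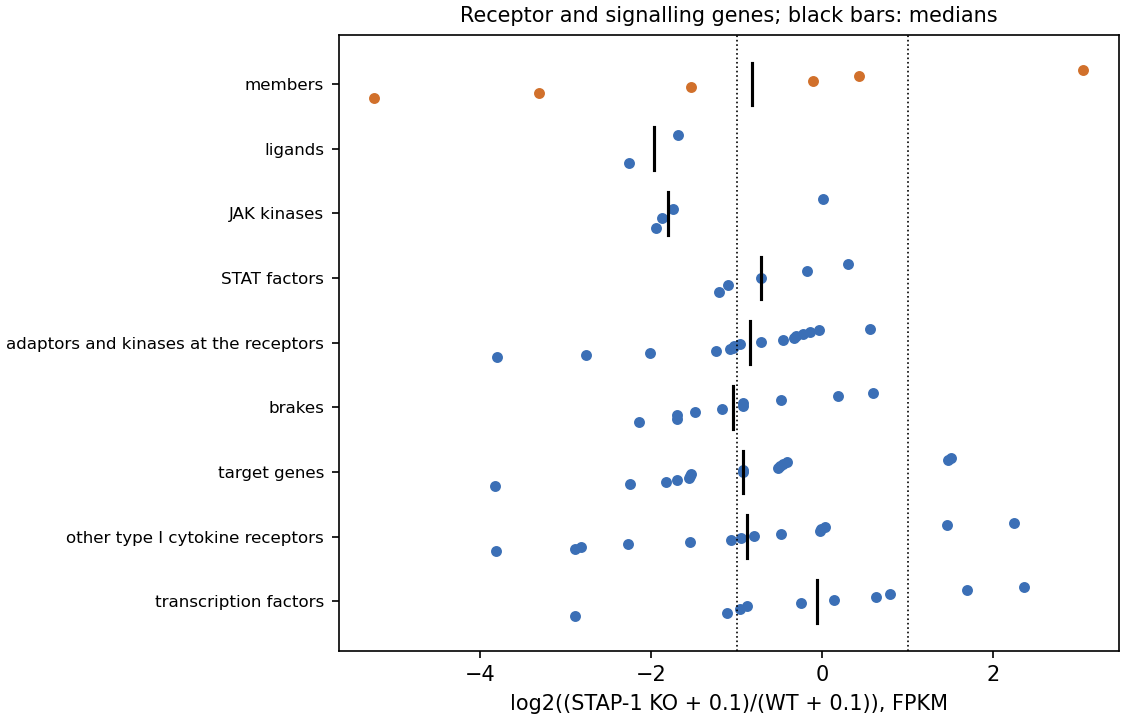
Log2((STAP-1 KO + 0.1)/(WT + 0.1)) of FPKM of the 6 receptor genes (orange) and of the genes of each list that averaged 1 FPKM or more (blue), with black bars for medians and dotted lines at a 2-fold difference. The receptor genes run from -5.24 to 3.06, the JAK kinases have 3 points near their median of -1.81 and 1 point at 0.01, and the median of the transcription factors is -0.05.

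Genes that mark particular myeloid cells also differed between the libraries, and the receptors are not evenly used by these cells. Of 12 mast cell and basophil markers, 10 were lower, none was higher, 1 was within 2-fold and 1, Mrgprb2, was at 0 in the STAP-1 KO library. Of all genes tested, 22.9% were lower and 12.3% were higher, and these shares are the background of each marker list. Their summed level was 51871 FPKM in WT and 5332 FPKM in STAP-1 KO LSCs, 9.73-fold lower, and Cpa3 (17984 and 1775 FPKM) and Cma1 (13924 and 1168 FPKM) led the list. IL-3 is a growth factor of these cells. The beta chain genes and this list were thus lower in the same library, and the part of such cells in the level of the beta chains was not tested.

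The markers of granulocyte progenitors and neutrophils did not move as 1 group. Of the 11 listed genes found, 5 were higher and 5 were lower, against 12.3% and 22.9% of all genes tested, and 1 was within 2-fold. Their sum was 960 FPKM in WT and 4780 FPKM in STAP-1 KO LSCs, led by the primary granule genes Mpo (248 and 1973 FPKM) and Ctsg (104 and 841 FPKM). The genes that were lower, Ltf, Camp, Ngp, S100a9 and Mmp8, are products of later neutrophil stages and are named here after their values were seen. Csf3r was higher together with the early granule genes, and their part in its level was not tested.

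The eosinophil markers summed to 10.7 FPKM in WT and 79.5 FPKM in STAP-1 KO LSCs, of which Prg2, the eosinophil major basic protein, was 2.12 and 61.7 FPKM. Ear2, the most abundant of these markers in the WT library, went the other way, with 6.91 and 2.78 FPKM, and was 2.48-fold lower. Of the 7 found, 3 were higher, 1 was lower and 3 were below 0.1 FPKM in a library, against 12.3% higher and 22.9% lower of all genes, so that the lower count is near the background. Il5ra, the receptor chain of this lineage, remained below 1 FPKM in both libraries. The monocyte and macrophage list summed to 145 FPKM in both libraries, with 4 genes lower (22.9% of all genes), 3 higher (12.3% of all genes), 1 within 2-fold and 1 below 0.1 FPKM in a library.

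Of the other lists, the B cell markers summed to 4.08 and 18.8 FPKM, most of it Cd79b (3.10 and 17.8 FPKM). Vpreb1 had 0.476 and 0.853 FPKM, and the B cell factors Pax5 and Ebf1, named after their values were seen, were at 0 in both libraries. The T and NK cell markers summed to 4.93 and 7.56 FPKM, the erythroid markers to 2554 and 1281 FPKM, and the megakaryocyte and platelet markers to 201 and 135 FPKM. Of the 7 genes of this last list, 2 were lower, 1 was higher and 4 were within 2-fold, near the 22.9% and 12.3% of all genes, and its lower sum was that of Itga2b (123 and 32.5 FPKM), whereas Pf4 had 57.9 and 71.2 FPKM. Of the 10 stem cell and sort markers, 4 were lower, 1 was higher and 5 were within 2-fold, against 22.9% and 12.3% of all genes tested. After subtraction of the median of genes of like transcript length 2 were lower, without Ptprc and Hlf, which is near the 19% of all genes tested. Kit, which encodes the c-Kit of the sort, had 468 FPKM in WT and 30.1 FPKM in STAP-1 KO LSCs, and the Sca-1 gene Ly6a 285 and 106 FPKM. Genotype, cell composition of the sort and library cannot be told apart with 1 library each.

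**Figure D5:**
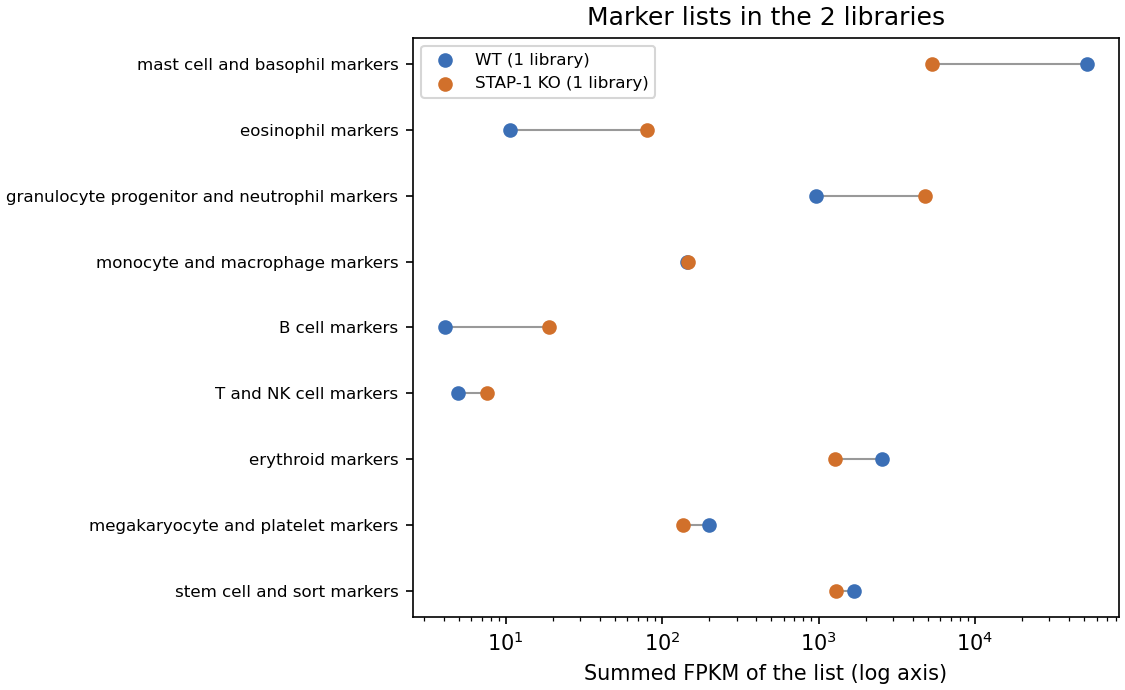
Summed FPKM (log axis) of each list of cell type markers in the WT library (blue) and the STAP-1 KO library (orange). The mast cell and basophil list lies at 51871 and 5332 FPKM, the granulocyte progenitor and neutrophil list at 960 and 4780 FPKM, and the points of the monocyte and macrophage list coincide at 145 FPKM.

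None of the other genes at the beta chain locus that could be tested was lower past the cut-off, against 22.9% of all genes tested. With so few genes, this count is near that share. Of the other 7 genes listed within 100000 bases, Ncf4, a subunit of the phagocyte NADPH oxidase and the direct neighbour of Csf2rb2, had 36.9 FPKM in WT and 37.3 FPKM in STAP-1 KO LSCs. Tst (1.20 and 8.50 FPKM) and Kctd17 (1.37 and 4.41 FPKM), beyond Csf2rb, were higher, against 12.3% of all genes tested. Mpst had 0.861 and 0.529 FPKM, Tmprss6 was at 0.179 and 0 FPKM, and Pvalb and Tex33 were at 0 in both libraries. Tmprss6, Pvalb and Tex33 were thus below 0.1 FPKM in a library and could not be called.

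The genes nearest to each receptor gene except Il5ra, which was below 1 FPKM in both libraries, were found by the distance of log2(FPKM + 1), which rests on 2 values a gene. Csf2rb was nearest to Plek (226 FPKM in WT and 23.5 FPKM in STAP-1 KO LSCs, distance 0.25), Cd55 and Cd97. Csf2rb2 was nearest to Eepd1 (223 and 9.34 FPKM, distance 0.54), Gpx3 and Svs2. Il3ra was nearest to Il18bp (15.3 and 5.04 FPKM, distance 0.03), Tnfsf4 and Fkbp15. Csf2ra was nearest to Atg4d, Tom1l1 and Ccdc90a. Csf3r was nearest to Clec5a, a receptor of myeloid cells (1.70 and 12.7 FPKM, distance 0.12), Lax1 and Gm5111.

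The ratio between the libraries varied with transcript length. Across 10859 genes, which are not independent replicates, Spearman's rank correlation of the log2 ratio with transcript length was -0.40. The length was that of the longest complete coding transcript, or of the longest transcript where there was none. The beta chains have long transcripts of 4900 and 4740 bases. After subtraction of the median of genes of like length, the log2 ratio was -2.65 for Csf2rb, -4.76 for Csf2rb2, -0.41 for Csf2ra, -1.79 for Il3ra and 3.20 for Csf3r. In 20 groups of genes by length, the median log2 ratio ran from 0.51 in the shortest to -1.004 in the longest. The same 4 members were past 2-fold in the same direction after the subtraction, against 19% of all genes lower and 11.5% higher. Jak2 was then at -1.21, and of the genes counted as lower in the pathway lists, Stat5b, Stat6, Sos1, Pik3r1, Lyn, Ptprc, Ets1 and the cytokine receptor gene Il6st were inside the 2-fold limits. Socs2, at -1.21, Ptpn2, at -1.05, and Gata1, at -1.33, were then lower, so that 6 brakes and 8 target genes were lower in place of 5 and 7. Id1, at 0.90, was no longer higher, and Il6ra, at 1.59, was.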

How the data were processed

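RNA-seq was performed by the authors on 1 WT and 1 STAP-1 KO sample of GFP+ CD45.2+ LSK cells with a SMART-Seq v4 and Nextera XT preparation and 75-base single reads. The methods name an RNeasy kit for extraction and the labels a miRNeasy kit. The authors mapped the reads to mm10 with TopHat 2.0.13 and Bowtie2 2.2.3 and deposited FPKM values from Cuffnorm 2.2.1. The submitters' processing notes name SAMtools 0.1.19, the methods another version. The gene annotation, the handling of reads with several matches and the total number of reads are not given in the sources used here. Unequal depth and transcript coverage can alter FPKM, and reads common to the beta chains can be divided between them in either way.

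Ratios were calculated in Python 3.11.15 (scipy 1.17.1, pandas 2.3.3, numpy 2.4.6). A gene was called when its levels differed 2-fold or more and neither was under 0.1 FPKM, and log2 ratios used a pseudocount of 0.1 FPKM. Effective depths were found from low FPKM values (below 0.3) of genes with 1 transcript of over 600 bases. At these depths, 47.7% of 283 values (WT) and 48.3% of 344 values (STAP-1 KO) were whole reads to within 0.01, where chance would give 2%. Estimated reads used the longest complete coding GENCODE M21 transcript, or the longest transcript where there was none. From its length 212 (WT) or 206 bases were taken off, and its use enlarges the estimated reads for genes with shorter transcripts. Level intervals are Poisson, share intervals Clopper-Pearson and ratio intervals conditional binomial, all exact. The coding sequences were aligned with Biopython 1.88, and upstream sequences came from RefSeq (GRCm38.p6). The steps were tested on simulated data.

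The members and gene lists were chosen with earlier results of these data known. Named by rule were the members, Stap1, Kit, Ly6a, ligands, JAK kinases, Stat5a and Stat5b. So were up to 3 genes with the largest log2 ratio (pseudocount of 1) in each other pathway list. In each marker list up to 2 genes with the largest summed FPKM were named, as were the 3 genes nearest to each member. Genes named outside these rules include Spi1, the gene of PU.1, the neighbours at the beta chain locus and genes whose call changed with length. List medians are over genes that averaged 1 FPKM or more. Siglecf, Ly6g and Hbb-bt were not matched, and Hba-a1 and Hba-a2, near-identical copies, are not described singly. Alternatives changed the floor, cut-off, pseudocount, scaling and length.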

Additional observations from a re-analysis of the deposited data

How the results depend on the processing

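The log2 ratios kept their sign under the alternatives tried for every member but Csf2ra, which was not called, and 77 alternative values were computed. With a pseudocount of 1 FPKM the log2 ratio of Csf3r was 2.51. Libraries scaled to equal summed FPKM gave -3.84 for the summed beta chains, and subtraction of the median of genes of like transcript length gave -3.36 for the summed beta chains and -0.89 for the summed alpha chains. With Csf2rb alone, the beta to alpha level was 8.34 in WT and 1.28 in STAP-1 KO. Over all alternatives the log2 ratio ran from -3.51 to -2.65 for Csf2rb, from -6.47 to -4.76 for Csf2rb2, from -0.41 to 0.00 for Csf2ra, from -1.79 to -1.38 for Il3ra, from 0.18 to 0.58 for Il5ra and from 2.51 to 3.20 for Csf3r. The assignment of shared reads, which gave the lowest values of Csf2rb and Csf2rb2, was chosen after seeing the data, as was the length setting for the gene lists, under which 1 target gene in place of 2 was higher. The cause of these movements was not tested beyond what each setting changes by construction. A 4-fold cut-off left 2 lower members. No paired analysis was possible because each genotype has 1 library, and for the same reason no library could be left out. Low levels, above all those of Il5ra and Il3, were limited by depth.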

Other observations

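The other receptors of the type I family include those of several mast cell and lymphocyte cytokines. Of 20 such genes, 7 were lower, 2 were higher, 8 were within 2-fold and 3 were below 0.1 FPKM in a library, against 22.9% of all genes tested that were lower and 12.3% that were higher. Il9r, the IL-9 receptor, had 6.91 FPKM in WT and 0.399 FPKM in STAP-1 KO LSCs and was 17.3-fold lower (counting interval 10.6 to 29.5). Il4ra, the IL-4 receptor alpha chain, had 112 and 14.9 FPKM, and Il7r, the IL-7 receptor alpha chain, 11.6 and 1.56 FPKM. The receptors that were higher were Il11ra1 (3.69 and 10.3 FPKM) and Il21r (1.89 and 9.36 FPKM), and Epor, the erythropoietin receptor, had 28.8 and 28.5 FPKM. These 3 were named after their values were seen.

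The receptor tyrosine kinases for growth factors of the same progenitors were unlike each other. Kit was lower in STAP-1 KO by a factor of 15.6, Csf1r, the M-CSF receptor, had 1.56 FPKM in WT and 5.31 FPKM in STAP-1 KO LSCs, and Flt3 had 7.62 and 6.54 FPKM. The cells of both libraries had been sorted for c-Kit on the surface.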
